A study of Mus musculus with 18 samples.

Results

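Apolipoproteins are the proteins on the surface of the lipoprotein particles that carry lipids through blood. The genes described here are 9 apolipoprotein genes (Apoa1, Apoa2, Apoa4, Apoa5, Apob, Apoc1, Apoc2, Apoc3 and Apoe) and Mttp, which encodes the microsomal triglyceride transfer protein that loads lipid onto apolipoprotein B. They were taken by name and are 10 of the 35441 genes in the deposited tables. All 10 reached the minimum for a test, a total above 100 reads, as did 14533 genes altogether. RNA from 18 livers of male mice was measured by sequencing of polyA RNA, in 6 groups of 3 animals. At 12-weeks post-injection there were WT mice, untreated Lipa-/- mice and Lipa-/- mice given rAAV8, and at 34-weeks the same kinds of mice (3 and 8 months in the labels). Both times are counted from the injection of the treated mice, which were therefore older than the months in the labels. Lipa-/- mice lack exon 4 of Lipa, the gene of lysosomal acid lipase, from every tissue, since the exon was deleted with a Cre driven by the CMV promoter, and were backcrossed to C57BL/6N. The treated mice are Lipa-/- mice that received, at 10 to 12 weeks of age and through the tail vein, an rAAV8 vector with human LIPA (hLIPA) under the hepatocyte-specific hAAT promoter. Which liver cells expressed it cannot be read from bulk RNA. WT and untreated Lipa-/- mice are labelled as having no treatment, and WT animals were age- and sex-matched littermates. By the account of the study, all untreated Lipa-/- mice of the 34-week group but a single survivor had been sacrificed before that time, at endpoints set in advance. The labels do not say which of the sequenced mice these were, so that age at sacrifice and genotype or treatment cannot be told apart in any comparison with untreated mice at 34-weeks.

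In the liver, apolipoprotein B is translated into the endoplasmic reticulum, where Mttp transfers triglyceride and cholesteryl ester to it, and the growing particle leaves the cell as very-low-density lipoprotein (VLDL). Apoa1 and Apoa2 are the main proteins of high-density lipoprotein (HDL). Apoe and the small Apoc proteins move between particles in plasma, where Apoe is a ligand for clearance by receptors, Apoc2 activates lipoprotein lipase and Apoc3 and Apoc1 slow lipolysis and uptake. Lysosomal acid lipase acts at the other end of this traffic, because it hydrolyses the cholesteryl esters and triglycerides of lipoproteins that cells have taken up. Hepatocytes are the main source of most of these proteins. Enterocytes also make Apob, Mttp and Apoa4.

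The reads assigned to genes numbered 17527848 to 25833134 per mouse. Murine Lipa, summed over its annotated transcripts, was at 62.2 to 85.7 transcripts-per-million (TPM, reads corrected for transcript length) in WT mice at 12-weeks and 83.3 to 133 TPM at 34-weeks, and at 5.37 to 14.1 TPM in all 12 Lipa-/- mice. hLIPA was at 519 to 2490 TPM in the 6 treated mice and at most 0.986 TPM in the others. Libraries differed in composition: the TMM factors, which scale the libraries to one another, were 1.16 to 1.69 in untreated Lipa-/- mice and 0.587 to 1.07 in all others, and the lowest values were those of treated mice at 12-weeks (0.587 to 0.759). With total counts in place of these factors, the all-gene median of the log2 fold changes between Lipa-/- and WT mice moved from 0.02 to 0.49 for 12-weeks, and for 34-weeks it went from -0.03 to 0.60. The share of passing genes that were higher moved alongside, from 58.5% to 84.1% and then from 50.3% to 79.1%. For treated against untreated mice this share was 43.9% and became 11.9% for 12-weeks, and was 47.8% and became 21% for 34-weeks. For treated against WT mice of 12-weeks it was 52.5% and became 25.1%. Log2 expression also depended on transcript length differently between libraries, by -0.37 to -0.29 per doubling of length in treated mice at 12-weeks, -0.13 to 0.15 in the other mice of that time and -0.19 to 0.31 at 34-weeks. Of 10 hepatocyte markers, 9 were in the tables, and their summed counts-per-million (CPM, scaled by the TMM factors) were 62926 to 79857 in WT, 23401 to 53291 in untreated and 52700 to 98687 in treated mice. The 10 macrophage markers summed to 111 to 370, 2244 to 3805 and 258 to 781 CPM in the same order. Markers of stellate cells and fibroblasts summed to 104 to 213, 610 to 1808 and 217 to 867 CPM. Of these 8 markers, 5 passed as higher and 1 as lower between Lipa-/- and WT mice at 12-weeks, and 6 and 2 at 34-weeks. Of all genes, 22.9% passed as higher and 16.3% as lower, then 23.8% and 23.5%. Markers of cholangiocytes summed to 6.84 to 18.8, 28.5 to 74.9 and 8.66 to 18.5 CPM, and those of neutrophils to 0.628 to 5.31, 102 to 1556 and 1.58 to 760 CPM. The labels give the 34-week animals a common code and the 12-week animals a different one, with Lipa-/- mouse 5 of 12-weeks under a code of its own, and time and code cannot be told apart.

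Per length, as TPM, the 10 genes spanned almost the whole range of abundant liver transcripts. In WT mice at 12-weeks Apoe was the most abundant of them, with 30381, 35431 and 34368 TPM in the 3 mice, which was rank 4 among all genes by mean. Apoa2 followed at rank 5, Apoc1 at rank 12, Apoa1 at rank 18 and Apoc3 at rank 20, so that 5 of the 10 genes were among the 20 most abundant. The other 5 were lower by an order of magnitude or more. Apoa5 was at rank 143, Apob at 208, Apoc2 at 231, Apoa4 at 492 and Mttp at 1336, the last with 57.3, 53.9 and 78 TPM. Ordered by mean TPM, neighbours whose ranges over the mice overlapped were Apoc1 (14119 ± 2063 TPM, SD, n = 3) and Apoa1 (11629 ± 2306), Apoa5 (787 ± 145) and Apob (574 ± 215), and Apob and Apoc2 (525 ± 50). Within each of the 3 mice, however, Apoc1 was above Apoa1 and Apoa5 above Apob. Only Apob and Apoc2 changed order between mice (450 against 508, 450 against 487 and 823 against 581 TPM).

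**Figure D1:**
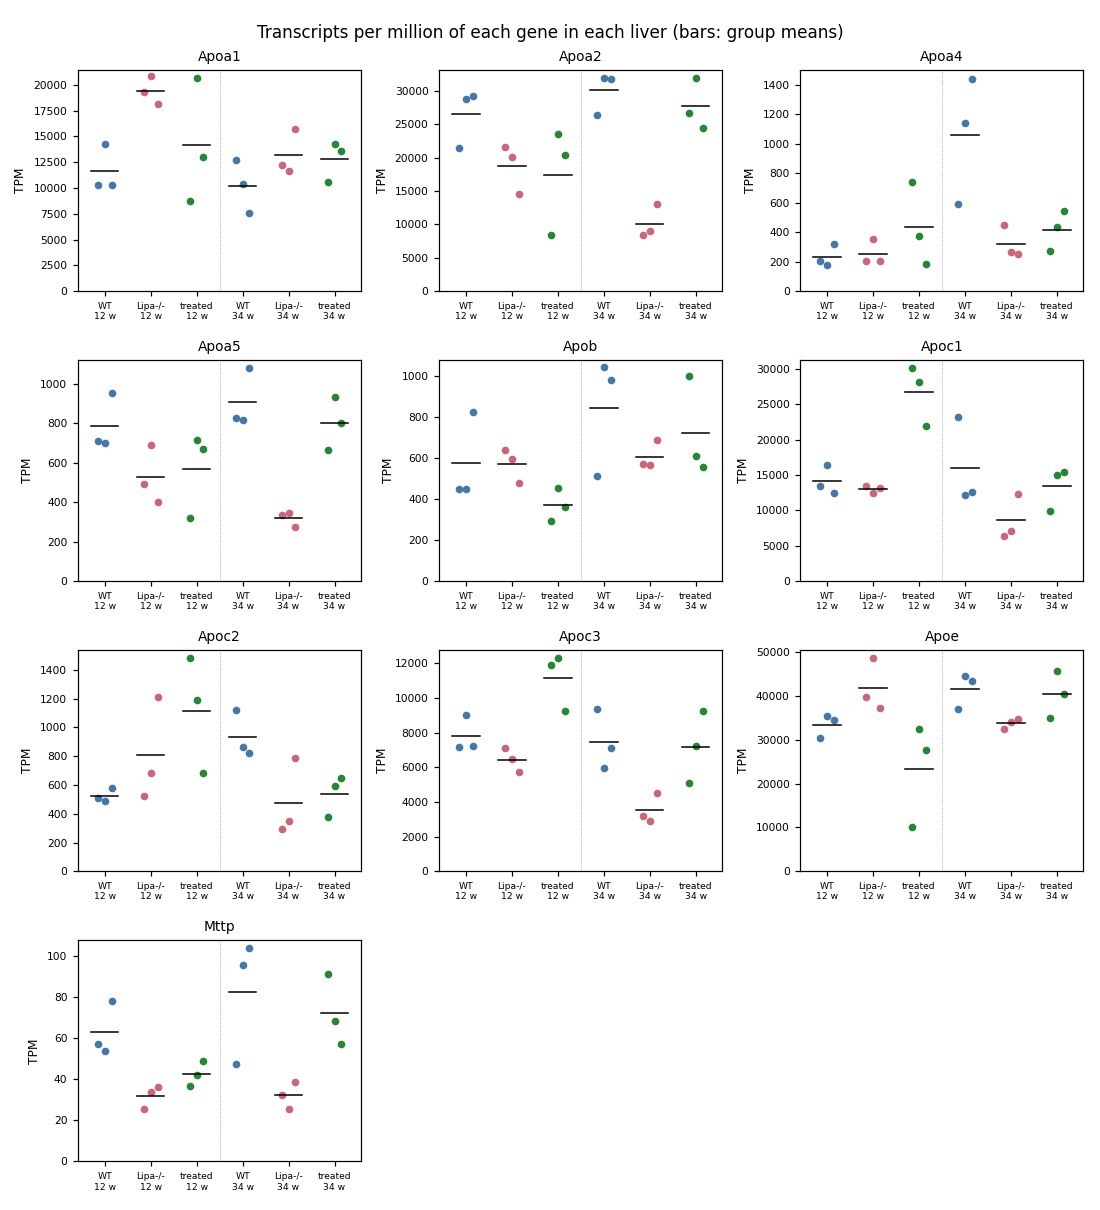
TPM of each of the 10 genes (vertical axes, linear, from 0) in each of the 18 livers, with WT mice in blue, Lipa-/- mice in red and treated Lipa-/- mice in green at 12-weeks (left of the dotted line) and 34-weeks (right). Each point is a mouse and each bar a group mean of 3 mice; for Mttp the untreated Lipa-/- mice lie between 25.5 and 38.7 TPM and the WT mice between 47.6 and 104 TPM.

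Summed over the 10 genes, TPM made up 9.56% ± 1.06 of all transcripts in WT, 10.2% ± 1.0 in Lipa-/- and 9.54% ± 2.41 in treated mice at 12-weeks (SD, n = 3 each). At 34-weeks the shares were 10.9% ± 0.24 in WT, 7.09% ± 0.984 in Lipa-/- and 10.4% ± 1.37 in treated mice. The 3 untreated mice of 34-weeks (6.42% to 8.22%) lay below every WT (10.7% to 11.2%) and treated mouse (8.96% to 11.7%) of that time, while at 12-weeks the groups overlapped.

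Of the 10 genes, 7 lie in 2 clusters. On chromosome 9 of GRCm39, Apoa1 (46139878 to 46142212, plus strand), Apoc3 (46142527 to 46146934, minus strand), Apoa4 (46151994 to 46154757, plus) and Apoa5 (46179931 to 46183217, plus) lie within 43.3 kb. On chromosome 7, all on the minus strand, Apoc2 (19405504 to 19411877), Apoc4, Apoc1 (19422540 to 19427328) and Apoe (19430034 to 19434947) lie within 29.4 kb. The annotation there also lists Apoc2l (19405509 to 19415348), which overlaps Apoc2 and Apoc4, so reads may be divided between these genes and the count of Apoc2 is uncertain to that extent. Apoa2 (chromosome 1, 171049125 to 171053948), Apob (chromosome 12, 8027648 to 8066835) and Mttp (chromosome 3, 137795612 to 137850729) lie apart. Upstream sequence of 8 of the 10 genes was found in a RefSeq table of the older build GRCm38, and Apoc1 and Apoc3 are named only. Over the window from 250 bases before to 50 after the start, on both strands, the letters TATAAA were present in 13.6% of 32851 promoters and in 3 of 8 members, AGGTCA (a nuclear receptor half-site) in 16.3% and in 1 (Apoc2), and CAAAGTC (the core of an HNF4 site) in 4.44% and in 0. The 100 bases before the start are shown for Apoa1 and Apoa2, the HDL pair whose ratio is described further on, and for Apob and Apoa5, which hold TATAAA (in capitals) at 60 and 31 bases before the start. The third TATAAA, in Apoa2, lies 212 bases before the start and outside the stretch shown. Coordinates are GRCm38 and each sequence is written 5′ to 3′ on the strand of the gene.
Apoa1 (chr9:46228530-46228629, plus strand): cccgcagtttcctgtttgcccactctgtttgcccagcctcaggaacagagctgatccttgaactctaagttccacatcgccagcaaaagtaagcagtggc
Apoa2 (chr1:171224954-171225053, plus strand): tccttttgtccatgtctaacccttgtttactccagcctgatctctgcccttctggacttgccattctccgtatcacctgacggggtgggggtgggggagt
Apob (chr12:7977577-7977676, plus strand): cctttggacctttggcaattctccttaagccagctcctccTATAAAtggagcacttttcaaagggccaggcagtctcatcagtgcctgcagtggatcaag
Apoa5 (chr9:46268508-46268607, plus strand): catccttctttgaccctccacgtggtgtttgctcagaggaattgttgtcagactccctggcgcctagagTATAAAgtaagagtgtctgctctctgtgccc

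The first question was which steps of lipoprotein production differ in the liver of mice without lysosomal acid lipase. Between Lipa-/- and WT mice at 12-weeks, 3 of the 10 genes were lower (Mttp, Apoa2 and Apob), 0 were higher and 7 did not pass an adjusted p of 0.05 (edgeR quasi-likelihood test, Benjamini-Hochberg over all 14533 genes). Of all genes tested, 39.2% passed in this comparison, 16.3% as lower and 22.9% as higher. The median log2 fold change of the members was -0.69, against 0.02 for all genes. At 34-weeks 9 of the 10 were lower and 0 higher, and only Apoa1 did not pass, where 47.3% of all genes passed, 23.5% as lower and 23.8% as higher. The median of the members was then -1.81, against -0.03 for all genes. Hepatocyte markers moved alongside, with 5 of 9 lower at 12-weeks (median -1.02) and 7 of 9 at 34-weeks (median -1.44), and their part in the results was not tested. In bulk liver, fewer hepatocytes and less RNA per hepatocyte cannot be told apart.

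Mttp was the member with the clearest difference. At 12-weeks it was at 85.5, 110 and 106 CPM in Lipa-/- mice and 252, 268 and 297 CPM in WT mice. At 34-weeks the values were 62.5, 66.5 and 98.1 CPM and 239, 300 and 341 CPM. Every Lipa-/- mouse lay far below every WT mouse at both times. The log2 fold change was -1.44 (standard error 0.23, 95% interval -1.92 to -0.95, adjusted p = 0.000118) at 12-weeks, which is 2.71-fold lower, and -1.95 (standard error 0.23, 95% interval -2.45 to -1.46, adjusted p = 4.85e-06) at 34-weeks, 3.87-fold lower. Mttp passed under all 8 other ways of scaling and filtering and without any one mouse at both times, and the length of the transcripts in use (3663 to 3736 bases in all mice) varied little.

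Apob, the structural protein of VLDL that Mttp lipidates, was at 1377, 1460 and 1091 CPM in Lipa-/- mice and 2152, 1961 and 3584 CPM in WT mice at 12-weeks. The groups did not overlap, and WT mouse 3 stood above the other WT mice. The log2 fold change was -0.97 (standard error 0.34, 95% interval -1.70 to -0.24, adjusted p = 0.0331) at 12-weeks. It was -1.30 (standard error 0.35, 95% interval -2.03 to -0.57, adjusted p = 0.0052) at 34-weeks, when Lipa-/- mice had 990, 1171 and 1528 CPM and WT mice 2113, 3406 and 3571 CPM. Apob was the member whose transcript length in use varied most among the livers, from 2406 to 5317 bases: the deposited mean length was 2683 ± 243 bases in Lipa-/- and 3841 ± 545 bases in WT mice at 12-weeks, and 3186 ± 217 and 3687 ± 538 bases at 34-weeks (SD, n = 3 each). The annotation lists 4 Apob transcripts, of 1118 to 13934 bases. When the lengths entered the edgeR fit as offsets, the log2 fold change at 12-weeks was -0.46 (adjusted p = 0.209), and on log2(TPM + 1) it was 0.04 (limma, adjusted p = 0.933). In TPM the groups overlapped, with 638, 596 and 480 in Lipa-/- and 450, 450 and 823 in WT mice. Without WT mouse 3 the value at 12-weeks was -0.65 (adjusted p = 0.181), and without Lipa-/- mouse 5, 8 or 9 the adjusted p was 0.0564 to 0.109. At 34-weeks Apob passed with lengths as offsets (-1.09, adjusted p = 0.00416) but not with total counts (-0.72, adjusted p = 0.112) or on TPM (-0.41, adjusted p = 0.279).

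**Figure D2:**
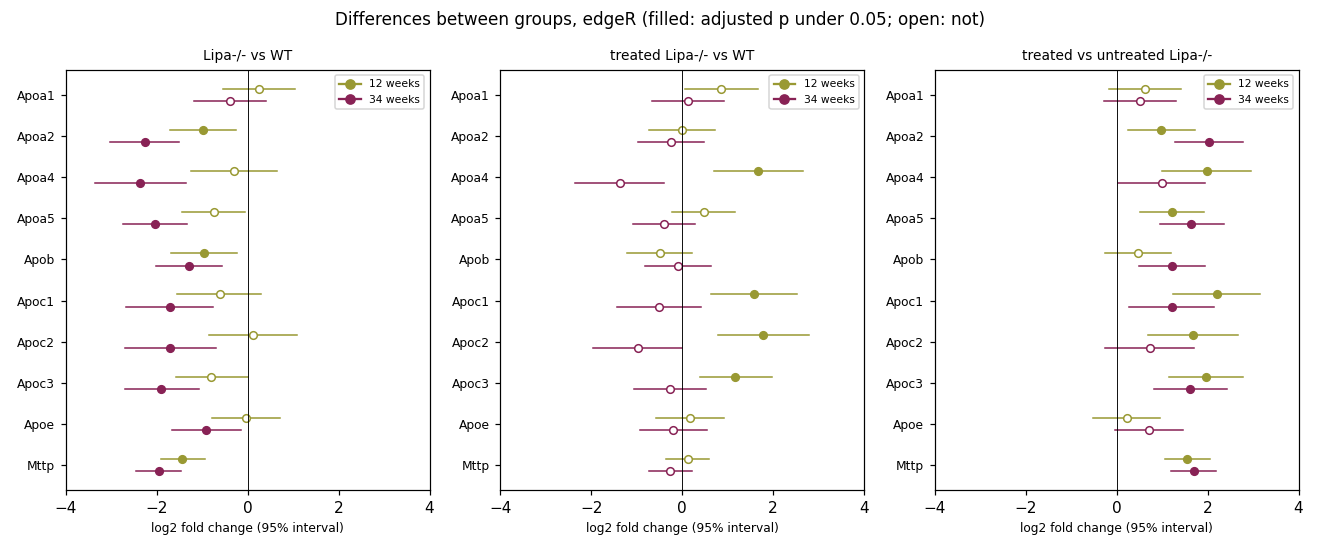
Log2 fold change of each gene with its 95% interval (horizontal axes) for Lipa-/- against WT mice (left), treated Lipa-/- against WT mice (middle) and treated against untreated Lipa-/- mice (right), at 12-weeks (olive) and 34-weeks (purple), from edgeR over 3 mice a group. Filled points have an adjusted p under 0.05 and open points do not; on the left, Mttp lies at -1.44 and -1.95 and Apoa1 crosses 0 at both times.

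The HDL proteins parted from each other. Apoa1 did not pass at either time, with 13536, 14114 and 11564 CPM in Lipa-/- and 9825, 14810 and 8476 CPM in WT mice at 12-weeks and 5116, 6380 and 8576 and 13916, 7040 and 5413 CPM at 34-weeks. For Apoa1 the groups overlapped in CPM at both times and in TPM at 34-weeks. In TPM at 12-weeks all Lipa-/- mice (18100 to 20800) were above all WT mice (10300 to 14300). Its log2 fold changes were 0.24 (standard error 0.38, 95% interval -0.55 to 1.04, adjusted p = 0.644) and -0.39 (standard error 0.38, 95% interval -1.19 to 0.40, adjusted p = 0.412), and their sign depended on the scaling: at 12-weeks it was 0.73 with total counts and -0.28 with the trends of length and GC content removed, and at 34-weeks 0.28 and -0.58. Apoa2 was at 5057, 4497 and 3172 CPM in Lipa-/- and 7010, 9853 and 8428 CPM in WT mice at 12-weeks. At 34-weeks it was at 1200, 1639 and 2422 and 10183, 7467 and 7805 CPM. No Lipa-/- mouse reached the WT range at either time, and the gap was wider at 34-weeks, although in TPM the groups of 12-weeks overlapped. Its log2 fold change was -0.99 (standard error 0.35, 95% interval -1.72 to -0.26, adjusted p = 0.0312) at 12-weeks and -2.27 (standard error 0.36, 95% interval -3.03 to -1.51, adjusted p = 7.18e-05) at 34-weeks, the latter 4.84-fold lower. The call at 12-weeks was lost without WT mouse 2 or 3 or Lipa-/- mouse 8 or 9 (adjusted p = 0.0643 to 0.118) and with total counts (-0.52, adjusted p = 0.211), and that of 34-weeks held throughout.

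Because both are counted in the same library, the ratio of Apoa2 to Apoa1 does not depend on how libraries are scaled to each other, although in TPM it depends on the deposited lengths. In TPM it was 2.01 to 2.85 in WT mice and 0.798 to 1.12 in Lipa-/- mice at 12-weeks, and 2.08 to 4.18 and 0.683 to 0.827 at 34-weeks. The groups did not overlap at either time, and in reads, without lengths, they did not either (0.665 to 0.994 and 0.274 to 0.374 at 12-weeks, 0.732 to 1.44 and 0.235 to 0.282 at 34-weeks). The ratio of Mttp to Apob in TPM was 0.0948 to 0.127 in WT and 0.0404 to 0.0751 in Lipa-/- mice at 12-weeks, and 0.0916 to 0.106 and 0.0451 to 0.0569 at 34-weeks. In TPM it too separated the groups at both times. In reads the groups were apart at 34-weeks (0.0881 to 0.113 in WT and 0.0568 to 0.0642 in Lipa-/- mice) but overlapped at 12-weeks (0.083 to 0.137 and 0.0621 to 0.0974), so that the separation at 12-weeks depends on the length of Apob. These ratios are given as values, since 3 mice against 3 allow no two-sided exact permutation p under 0.1. The ratio of Apoe to Apob in TPM overlapped between WT and Lipa-/- mice, at 41.8 to 78.7 and 62.2 to 81.3 at 12-weeks and 42.6 to 72.3 and 50.6 to 60.5 at 34-weeks. In reads it overlapped at 34-weeks (8.29 to 18.8 and 12.5 to 16.8) but not at 12-weeks (7.51 to 18 and 21.3 to 22.6). The ratios in reads were added after seeing the data.

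**Figure D3:**
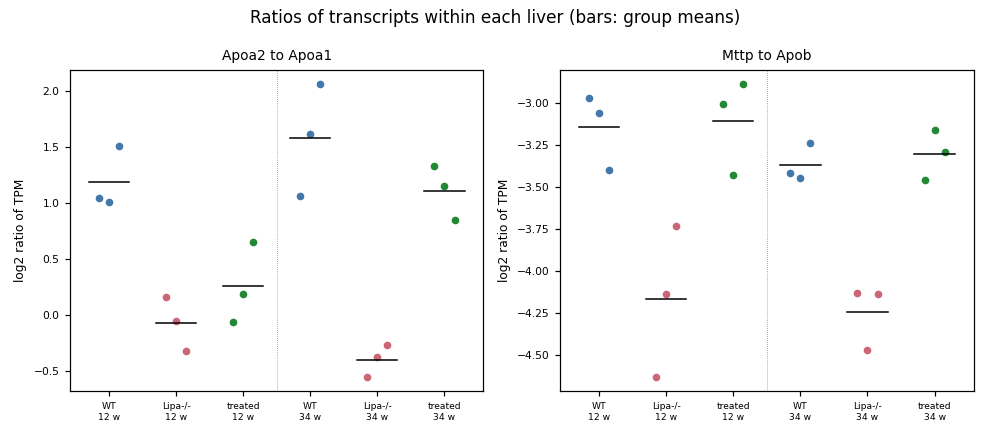
Log2 ratio of the TPM of Apoa2 to Apoa1 (left) and of Mttp to Apob (right) in each of the 18 livers, by group and time, with points for mice and bars for the means of 3 mice. The untreated Lipa-/- mice lie at -0.55 to 0.16 on the left, below all WT mice (1.01 to 2.06), and at -4.63 to -3.73 on the right, below all WT mice (-3.45 to -2.97).

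Among the Apoc proteins, Apoc3, the inhibitor of lipolysis, was at 1769, 1572 and 1365 CPM in Lipa-/- and 2549, 3361 and 2257 CPM in WT mice at 12-weeks. The groups did not overlap, but the log2 fold change of -0.80 (adjusted p = 0.104) did not pass. At 34-weeks it was at 486, 569 and 911 and 3910, 1502 and 1903 CPM, again without overlap, with a log2 fold change of -1.90 (standard error 0.38, 95% interval -2.71 to -1.08, adjusted p = 0.000677). Apoc1 was at 710, 993 and 1753 CPM in Lipa-/- and 6851, 2180 and 2355 CPM in WT mice at 34-weeks, 3.29-fold lower (-1.72 (standard error 0.45, 95% interval -2.67 to -0.77, adjusted p = 0.00451)). WT mouse 1 was far above the other WT mice, and without it the log2 fold change was -0.98 (adjusted p = 0.0484). Under the 8 other ways of scaling and filtering Apoc1 passed each time, with -1.91 to -0.88. In TPM the groups overlapped (6450 to 12300 in Lipa-/- and 12200 to 23200 in WT mice). Apoc2, the activator of lipoprotein lipase, was at 61.6, 93.6 and 215 and 626, 294 and 294 CPM. The Lipa-/- mice were all lower, and the same WT mouse was highest. The log2 fold change was -1.71 (standard error 0.47, 95% interval -2.71 to -0.71, adjusted p = 0.00679). It passed in all 6 fits without 1 mouse, from -2.37 (adjusted p = 0.00104) without Lipa-/- mouse 6 to -1.25 without WT mouse 1. In the latter the adjusted p was 0.0449, and without Lipa-/- mouse 4 it was 0.0445, both close to the threshold. At 12-weeks neither passed, with -0.62 (adjusted p = 0.278) for Apoc1 and 0.11 (adjusted p = 0.873) for Apoc2, and the sign of the latter was negative (-0.54) with the trends of length and GC content removed.

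Apoa5, a promoter of triglyceride clearance, was at 899, 1201 and 590 CPM in Lipa-/- and 1397, 1541 and 1576 CPM in WT mice at 12-weeks. The log2 fold change of -0.75 (standard error 0.33, 95% interval -1.44 to -0.06, adjusted p = 0.0804) did not pass, although the groups did not overlap. It passed with the deposited lengths as offsets (-1.04, adjusted p = 0.0121) but not with total counts (-0.28, adjusted p = 0.484) or on TPM (limma, -0.60, adjusted p = 0.122). Of the 8 other ways of scaling and filtering, 3 gave a pass. The length in use was 1958 ± 97 bases in Lipa-/- and 1638 ± 25 bases in WT mice (SD, n = 3 each). At 34-weeks Apoa5 was at 349, 488 and 369 and 2135, 1208 and 1612 CPM, 4.11-fold lower in Lipa-/- mice (-2.04 (standard error 0.34, 95% interval -2.75 to -1.33, adjusted p = 0.00011)). Apoa4, which is carried on triglyceride-rich particles, was at 285, 487 and 255 and 388, 367 and 519 CPM at 12-weeks, with overlap and a log2 fold change of -0.31 (adjusted p = 0.624). At 34-weeks it was at 369, 293 and 271 CPM in Lipa-/- and 1273, 1522 and 2027 CPM in WT mice. All Lipa-/- mice lay below all WT mice, with the largest fold of the 10 genes, 5.17-fold lower (-2.37 (standard error 0.47, 95% interval -3.37 to -1.37, adjusted p = 0.000589)). Markers of enterocytes, the other cells that make Apoa4, summed to 91.5 to 307 CPM in WT, 5.93 to 27 CPM in untreated and 56.3 to 217 CPM in treated mice. Only 2 of these 6 markers had enough reads for a test. Between Lipa-/- and WT mice, 1 passed as higher and 1 as lower at each time (2.89 and -2.5 at 12-weeks, 3.43 and -4.81 at 34-weeks). Cdx2, the defining factor of enterocytes, was at 0 in every group, and the part of the enterocyte markers in the result was not tested.

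Apoe, the ligand for receptor-mediated clearance, was the gene with the smallest log2 fold change at 12-weeks, -0.05 (standard error 0.35, 95% interval -0.79 to 0.70, adjusted p = 0.931), with 30403, 33023 and 23288 CPM in Lipa-/- and 27378, 35237 and 26912 CPM in WT mice. The groups overlapped. At 34-weeks it was at 13737, 19696 and 19096 and 39814, 29196 and 29618 CPM, which gave -0.91 (standard error 0.35, 95% interval -1.66 to -0.16, adjusted p = 0.0444). This call was lost in all 6 fits that left out 1 mouse (adjusted p = 0.0553 to 0.163) and with total counts (-0.27, adjusted p = 0.504). Macrophages also make Apoe, and the macrophage markers named above were higher in these livers (7 of 10 passed as higher and 1 as lower at 12-weeks, 5 and 2 at 34-weeks); their part in the level of Apoe was not tested.

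**Figure D4:**
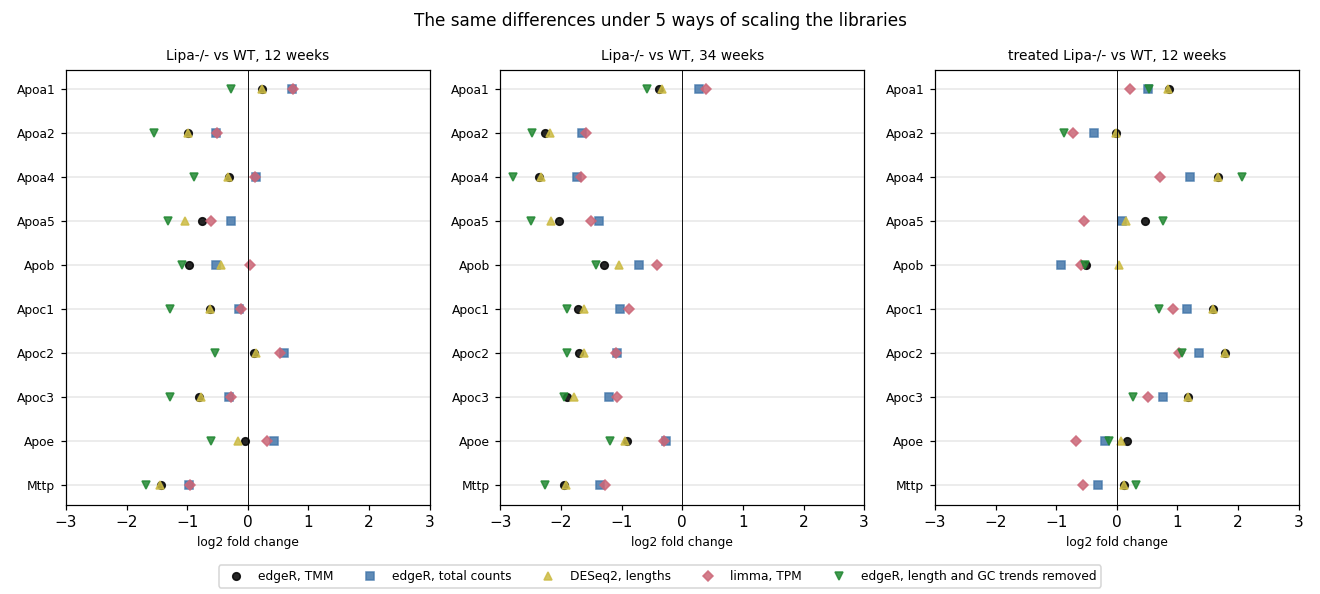
Log2 fold change of each gene (horizontal axes) in 3 of the comparisons under 5 ways of scaling: edgeR with TMM factors (black circles), edgeR with total counts (blue squares), DESeq2 with gene lengths (yellow triangles), limma on log2(TPM + 1) (red diamonds) and edgeR with trends of length and GC content removed (green triangles). In the middle panel, for 34-weeks, Mttp stays between -2.27 and -1.27, whereas Apoa1 lies on both sides of 0.

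The second question was how these genes stood after treatment. Against untreated Lipa-/- mice, 7 of the 10 genes were higher in treated mice at 12-weeks and 0 lower, where 54.3% of all genes passed, 23.8% as higher and 30.4% as lower. The median log2 fold change of the members was 1.38, against -0.19 for all genes. At 34-weeks 6 of the 10 were higher and 0 lower (of all genes, 41.1% passed, 19.6% as higher and 21.4% as lower), with a median of 1.21 against 0.03. Mttp passed at both times, at 300, 240 and 346 CPM in treated mice at 12-weeks and 279, 257 and 196 CPM at 34-weeks. All treated mice were above all untreated mice of their time, with log2 fold changes of 1.55 (standard error 0.23, 95% interval 1.06 to 2.04, adjusted p = 6.2e-05) and 1.69 (standard error 0.23, 95% interval 1.20 to 2.18, adjusted p = 2.68e-05). In deposited TPM the treated mice of 12-weeks were closer to untreated mice (36.7, 42 and 49 against 25.8, 33.9 and 36.1 TPM), and limma on log2(TPM + 1) gave 0.41 (adjusted p = 0.209).

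Apoa2 was at 6047, 8949 and 6388 CPM in treated mice at 34-weeks, well above the untreated range, with a log2 fold change of 2.02 (standard error 0.36, 95% interval 1.27 to 2.78, adjusted p = 0.000253). At 12-weeks it was at 4947, 9516 and 10632 CPM, and mouse 10 lay within the untreated range while mice 11 and 12 lay above it. The log2 fold change of 0.98 (standard error 0.35, 95% interval 0.25 to 1.71, adjusted p = 0.0249) was lost in 4 of the 6 fits without 1 mouse, and on log2(TPM + 1) it had the opposite sign (-0.21, adjusted p = 0.653). The ratio of Apoa2 to Apoa1 was 0.956 to 1.57 in treated mice at 12-weeks, which overlapped with untreated mice and not with WT mice. At 34-weeks it was 1.81 to 2.52, above all untreated mice and within reach of WT mice. The ratio of Mttp to Apob in TPM was 0.0925 to 0.135 and 0.0912 to 0.112, above all untreated mice and overlapping with WT mice at both times. In reads it was 0.132 to 0.183 at 12-weeks, also above all untreated mice, and 0.0635 to 0.113 at 34-weeks, where treated mouse 9, with the longest Apob length (5317 bases), lay within the untreated range.

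Apoc3 passed at both times (1.97 (adjusted p = 0.000562) and 1.62 (adjusted p = 0.00259)), as did Apoc1 (2.20 (adjusted p = 0.000843) and 1.21 (adjusted p = 0.0372)) and Apoa5 (1.21 (adjusted p = 0.00571) and 1.64 (adjusted p = 0.000825)). The call of Apoc1 at 34-weeks held in only 2 of the 6 fits without 1 mouse and in 5 of the 8 other ways of scaling and filtering. Apoa5 at 12-weeks passed in 6 of these 8, and its log2 fold change went down to 0.06. In TPM the treated mice (320 to 714) overlapped with the untreated mice (401 to 689) for Apoa5 at that time. Apoc2 and Apoa4 passed at 12-weeks only, with 1.67 (adjusted p = 0.00721) and 1.98 (adjusted p = 0.00221), against 0.73 (adjusted p = 0.227) and 0.99 (adjusted p = 0.0938) at 34-weeks. Under the 8 other settings the 12-week values went down to 0.49 for Apoc2 (6 passing) and 0.59 for Apoa4 (7 passing). Without treated mouse 10, Apoc2 at 12-weeks had 1.19 (adjusted p = 0.0529) and Apoa4 1.06 (adjusted p = 0.0258), and at 34-weeks Apoc2 passed without Lipa-/- mouse 6 (1.39, adjusted p = 0.0279) and Apoa4 without treated mouse 9 (1.27, adjusted p = 0.0474). Apob passed at 34-weeks only, with 1.21 (adjusted p = 0.00955) against 0.47 (adjusted p = 0.251) at 12-weeks, and its value at 34-weeks was 0.76 (adjusted p = 0.0822) without treated mouse 9 and 1.04 (adjusted p = 0.052) without Lipa-/- mouse 4. Under the 8 other settings the 34-week value of Apob went down to 0.21 (6 passing). Whether these genes differed between the times in this comparison was not tested. Apoa1 (0.62 (adjusted p = 0.173) and 0.52 (adjusted p = 0.292)) and Apoe (0.22 (adjusted p = 0.618) and 0.71 (adjusted p = 0.12)) did not pass at either time.

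Against WT mice, 4 of the 10 genes were higher in treated mice at 12-weeks and 0 lower (of all genes, 36.8% passed, 19.4% as higher and 17.5% as lower), and the median of the members was 0.66 against 0.06 for all genes. They were the 3 Apoc genes and Apoa4. Apoc1 was at 13715, 8679 and 8660 CPM in treated and 3355, 4298 and 2759 CPM in WT mice, without overlap, with a log2 fold change of 1.58 (standard error 0.45, 95% interval 0.64 to 2.52, adjusted p = 0.0141). Apoc2 was at 1293, 706 and 519 and 242, 246 and 243 CPM, with 1.78 (standard error 0.47, 95% interval 0.78 to 2.78, adjusted p = 0.0109). For both, the treated mice lay above all WT mice, and mouse 10 was the highest. Apoc3 was at 7782, 5396 and 5249 CPM in treated mice (1.17 (standard error 0.38, 95% interval 0.38 to 1.97, adjusted p = 0.0246)). Apoa4 was at 2589, 912 and 549 and 388, 367 and 519 CPM (1.67 (standard error 0.46, 95% interval 0.69 to 2.65, adjusted p = 0.0129)). Mouse 10 carried much of the difference of Apoa4, with the other treated mice nearer to WT mice. Without mouse 10 none of the 4 passed, with log2 fold changes of 1.24 for Apoc1 (adjusted p = 0.0761), 1.25 for Apoc2 (adjusted p = 0.0762), 0.89 for Apoc3 (adjusted p = 0.122) and 0.71 for Apoa4 (adjusted p = 0.162). Without WT mouse 3, Apoc1 (1.44, adjusted p = 0.0687) and Apoc3 (1.06, adjusted p = 0.0998) did not pass, and without WT mouse 1 Apoc3 did not (1.13, adjusted p = 0.072). With the trends of length and GC content removed, Apoc1 (0.69) and Apoc3 (0.26) did not pass and Apoc2 and Apoa4 did. The median lengths in use of these genes were 210 bases for Apoc1, 298 for Apoc3, 402 for Apoc2 and 1584 for Apoa4.

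The other 6 genes did not pass against WT mice at 12-weeks. Mttp had a log2 fold change of 0.12 (standard error 0.23, 95% interval -0.36 to 0.59, adjusted p = 0.706), where the groups overlapped in CPM, while in deposited TPM all treated mice (36.7, 42 and 49) were below all WT mice (57.3, 53.9 and 78). The remaining values were 0.86 (adjusted p = 0.0805) for Apoa1, -0.01 (adjusted p = 0.987) for Apoa2, 0.47 (adjusted p = 0.265) for Apoa5, -0.50 (adjusted p = 0.255) for Apob and 0.17 (adjusted p = 0.722) for Apoe.

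At 34-weeks 0 of the 10 genes passed between treated and WT mice in edgeR and 0 in DESeq2. Of all genes, 0.22% passed in edgeR. An unadjusted p under 0.05 was found in edgeR for 2 of the 10 genes and for 837 of the 14533 genes tested. The median log2 fold change of the members was -0.27, against 0 for all genes. Mttp was at 279, 257 and 196 CPM in treated and 239, 300 and 341 CPM in WT mice, with -0.26 (standard error 0.23, 95% interval -0.74 to 0.21, adjusted p = 0.965). The interval does not reach a 2-fold difference in either direction. Apoa4 was the largest of the 10, with 356, 696 and 800 CPM in treated mice, all below the WT mice (1273, 1522 and 2027 CPM), and -1.38 (standard error 0.46, 95% interval -2.35 to -0.41, adjusted p = 0.538). Apoc2 had -0.98 (standard error 0.46, 95% interval -1.96 to 0.00, adjusted p = 0.865), also with all treated mice below all WT mice. For the other 7 genes the log2 fold change lay between -0.51 (Apoc1) and 0.13 (Apoa1).

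The time points were compared within WT mice and through interactions, that is, the fold change against WT mice at 34-weeks minus that at 12-weeks. Between WT mice of 34- and 12-weeks 0 of the 10 genes passed, and 0.33% of all genes did. An unadjusted p under 0.05 was found for 1133 of the 14533 genes tested and for 1 member. This was Apoa4, at 1273, 1522 and 2027 CPM at 34-weeks against 388, 367 and 519 CPM at 12-weeks. All older mice were above all younger mice, with 1.92 (standard error 0.47, 95% interval 0.94 to 2.91, adjusted p = 0.109), and it passed in DESeq2 and in edgeR without a filter. For untreated Lipa-/- mice the interaction was passed by 0 of the 10 genes (0.0619% of all genes passed). Of the 14533 genes tested, 1378 had an unadjusted p under 0.05, and of the 10 genes 4 did. The values of these were -2.06 (adjusted p = 0.27) for Apoa4, -1.82 (adjusted p = 0.358) for Apoc2, -1.29 (adjusted p = 0.349) for Apoa5 and -1.28 (adjusted p = 0.385) for Apoa2. The larger number of lower genes at 34-weeks was therefore not shown, gene by gene, to be a difference between the times.

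For treated mice the interaction was passed by 3 of the 10 genes, all lower at 34- than at 12-weeks relative to WT mice, where 19.6% of all genes passed and 10.5% as lower. The differences in log2 fold change were -3.05 (standard error 0.65, 95% interval -4.43 to -1.67, adjusted p = 0.0237) for Apoa4, -2.77 (standard error 0.66, 95% interval -4.17 to -1.37, adjusted p = 0.0241) for Apoc2 and -2.09 (standard error 0.62, 95% interval -3.40 to -0.78, adjusted p = 0.0329) for Apoc1. Apoc3 had -1.44 (adjusted p = 0.0621) and did not pass, and Mttp had -0.38 (adjusted p = 0.396). These calls rest on few mice: without treated mouse 10 of 12-weeks only Apoa4 passed (-2.10, adjusted p = 0.0408), without WT mouse 1 of 34-weeks only Apoa4 (-3.19, adjusted p = 0.043), and 0 passed without treated mouse 9 of 34-weeks, WT mouse 1 of 12-weeks or WT mouse 3 of 12-weeks. The same WT mouse 1 of 34-weeks had the lowest dependence on transcript length of its group (-0.19 per doubling), and its values of the short genes Apoc1, Apoc2 and Apoc3 were the highest among WT mice.

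The genes that carry VLDL out of the cell were counted as a list of 20, without the 10 members. Between Lipa-/- and WT mice 5 of the 20 were lower and 2 higher at 12-weeks, and 13 lower and 2 higher at 34-weeks, with medians of -0.46 and -0.97. Of all genes, 16.3% and 23.5% were lower and 22.9% and 23.8% higher, which is the background for this and the following lists. Sar1b, the small GTPase of the coat vesicles that take large lipoproteins from the endoplasmic reticulum, was lower at both times (-1.52 (adjusted p = 0.00962) and -2.63 (adjusted p = 0.000138)), and Mia2, a cargo receptor at the same exit site, was lower at 12-weeks (-1.07 (adjusted p = 0.00493)). Apobec1, the deaminase that edits Apob mRNA, was higher at both times (1.93 (adjusted p = 6.81e-06) and 2.14 (adjusted p = 2e-06)), whereas A1cf, its cofactor, was lower (-2.25 (adjusted p = 0.0011) and -2.30 (adjusted p = 0.000678)). Sort1, a sorting receptor, was higher at 34-weeks (1.9 (adjusted p = 5.14e-06)). In treated mice 8 of the 20 were higher and 2 lower than in untreated mice at 12-weeks, with the same counts at 34-weeks. Of all genes these shares were 23.8% and 30.4%, then 19.6% and 21.4%. Against WT mice 0 of the 20 passed at 34-weeks, where 0.22% of all genes did. An unadjusted p under 0.05 was found there for 1 of them and for 837 of the 14533 genes tested.

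Of 11 other apolipoproteins and HDL proteins, 10 had enough reads, which leaves out Apod. At 12-weeks 2 were higher and 1 lower in Lipa-/- mice, and at 34-weeks 2 higher and 6 lower (medians -0.38 and -1.43). The higher ones included the acute-phase proteins Saa2 (6.50 (adjusted p = 0.00293) and 3.47 (adjusted p = 0.0401)) and, at 12-weeks, Saa1 (4.43 (adjusted p = 0.0153)), which share sequence with each other and whose division of reads is uncertain. Pon1, the paraoxonase of HDL, was lower at both times (-1.40 (adjusted p = 0.000146) and -2.68 (adjusted p = 3.44e-07)), and Saa4 (-1.89 (adjusted p = 0.000689)) and Apon (-1.69 (adjusted p = 3.73e-05)) were lower at 34-weeks. Among 11 genes of HDL lipidation and plasma lipolysis, 2 were higher and 1 lower at 12-weeks and 2 higher and 3 lower at 34-weeks. Lpl, lipoprotein lipase, and Abcg1, a sterol exporter, both abundant in macrophages, were higher (5.19 (adjusted p = 1.43e-08) and 5.32 (adjusted p = 1.23e-08) for Lpl, 3.95 (adjusted p = 1.7e-08) and 3.40 (adjusted p = 4.35e-08) for Abcg1). Lipc, the hepatic lipase, was lower (-2.21 (adjusted p = 2.58e-05) and -3.36 (adjusted p = 5.07e-07)), as was Lcat, the cholesterol acyltransferase of HDL, at 34-weeks (-1.38 (adjusted p = 0.00137)). Of 10 receptors and clearance genes, 1 was higher and 0 lower at each time, none of them by more than 2-fold.

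Of 24 transcription factors and cofactors that act on these genes, 7 were lower at 12-weeks and 11 at 34-weeks, and 0 were higher at either time (medians -0.59 and -0.93). Creb3l3, a liver factor of triglyceride metabolism, and Ppara, the fatty acid receptor, were lower at both times, with -1.55 (adjusted p = 3.87e-05) and -1.89 (adjusted p = 4.34e-06) for Creb3l3 and -1.42 (adjusted p = 0.00371) and -1.98 (adjusted p = 0.000202) for Ppara. Onecut1 (-4.37 (adjusted p = 0.000147)) and Foxa1 (-1.75 (adjusted p = 0.000941)) were lower at 12-weeks. Nr1h4, the bile acid receptor (-1.63 (adjusted p = 1.86e-05)), and Nr0b2 (-1.75 (adjusted p = 0.0382)) were lower at 34-weeks. In treated mice 0 of the 24 passed against WT mice at 34-weeks, in edgeR, where 0.22% of all genes did. An unadjusted p under 0.05 was found there for 0 of the 24 and for 837 of the 14533 genes tested. At 12-weeks 11 of the 24 were lower and 2 higher in treated than in WT mice, where 17.5% and 19.4% of all genes were.

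Of 12 neighbours of the 2 clusters, 2 were higher and 1 lower in Lipa-/- mice at each time, with medians of -0.06 and 0.11, against 0.02 and -0.03 for all genes. Relb, a subunit of NF-kappaB beyond the Apoc2 end of the chromosome 7 cluster, was higher (3.60 (adjusted p = 9.67e-07) and 3.00 (adjusted p = 2.85e-06)), as was Bcam, a laminin receptor beyond the Apoe end (1.55 (adjusted p = 0.00245) and 2.02 (adjusted p = 0.000183)). Apoc4, which lies between Apoc2 and Apoc1, had -0.37 (adjusted p = 0.583) at 12-weeks and was lower at 34-weeks (-1.68 (adjusted p = 0.0104)). In treated mice at 12-weeks it was higher than in WT mice (1.95 (adjusted p = 0.00967)), like Apoc1 and Apoc2 beside it. Tomm40, the gene next to Apoe, had 0.14 (adjusted p = 0.738) and 0.15 (adjusted p = 0.703), Nectin2 -0.38 (adjusted p = 0.292) and 0.02 (adjusted p = 0.96), and Clptm1 0.01 (adjusted p = 0.986) and -0.15 (adjusted p = 0.555). Beside the chromosome 9 cluster, Zpr1 had -0.12 (adjusted p = 0.715) and 0.07 (adjusted p = 0.825), Bud13 0.10 (adjusted p = 0.833) and 0.31 (adjusted p = 0.479), Sik3 -0.72 (adjusted p = 0.0672) and -0.29 (adjusted p = 0.444), and Pafah1b2 0.03 (adjusted p = 0.914) and 0.32 (adjusted p = 0.181). Pcsk7 was lower at 12-weeks (-0.72 (adjusted p = 0.0369)) and did not pass at 34-weeks (-0.64 (adjusted p = 0.053)), and Tagln had -0.43 (adjusted p = 0.63) and 1.10 (adjusted p = 0.169).

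Genes with a profile like that of the members at either end of the range were taken by the root mean square difference in centred log2 CPM over the 18 livers, as a description. For Mttp these were Mmut (0.17), Slc25a13 (0.18) and Acot12 (0.19), against a median of 1.03 over all genes. For Apoa1 they were Ndufc1 (0.24), Rps19bp1 (0.24) and Anapc13 (0.25), against a median of 0.93. Mmut, Slc25a13 and Acot12 encode a methylmalonyl-CoA mutase, a mitochondrial aspartate-glutamate carrier and an acyl-CoA thioesterase.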

How the data were processed

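The authors quantified paired-end reads with Salmon against mouse transcripts (Ensembl cDNA, GRCm39) brought them to gene level with tximport, and deposited estimated counts, TPM and mean transcript lengths per gene and mouse. R 4.3.0 and DESeq2 1.40.1 stand in the submitters' processing notes. A deposited table of the study's own log2 fold changes and p-values was not used, nor were the ERCC spike-ins. Estimated counts (19.4% were not whole) were rounded, genes with 100 or fewer reads in all were left out (20908 genes), and the rest were fitted with edgeR 4.0.16 (R 4.3.3; TMM factors, quasi-likelihood test, 6 group means, 9 comparisons). A gene passed at a Benjamini-Hochberg adjusted p under 0.05 over all genes tested. Intervals are 95%, for single genes. CPM were scaled by the TMM factors. The depth of 17527848 to 25833134 reads a mouse makes counting error small for these genes beside the spread between mice.

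Alternatives used DESeq2 1.42.0 and limma 3.58.1 on log2(TPM + 1). Removal of trends with length and GC content was added after seeing the data (98.4% of tested genes and 10 of 10 members had values). Scripts were tested on simulated data. Each mouse was taken as a separate animal, and the labels give numbers but neither cages nor litters. WT and treated numbers recur at both times in different animals, as does the number of Lipa-/- mouse 5. Deviations of same-numbered WT and treated mice had correlations of -0.25 to 0.46, the highest for WT mouse 3. That of Lipa-/- mouse 5 was not computed. Since the numbers mark different animals, they were not used as a block in the main fit. The members and the gene lists were chosen with earlier results of these data known. From each list, genes over 2-fold and passing between Lipa-/- and WT mice were named, at most the 4 largest at a time, with all cluster neighbours. Neighbours without such a difference are given for context.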

Additional observations from a re-analysis of the deposited data

Results flagged for a closer look

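The difference between treated and WT mice itself differed between the times, by the interaction test of edgeR, for 3 of the 10 genes. Taken against WT mice of the same time, the log2 fold change at 34-weeks minus that at 12-weeks was -3.05 for Apoa4 (adjusted p = 0.0237), -2.77 for Apoc2 (adjusted p = 0.0241) and -2.09 for Apoc1 (adjusted p = 0.0329). For Apoa4, treated mice were 3.18-fold above WT mice at 12-weeks and had a log2 fold change of -1.38 at 34-weeks, while all WT mice of 34-weeks lay above all those of 12-weeks, a difference that did not pass (1273, 1522 and 2027 CPM against 388, 367 and 519 CPM). For Apoc1 and Apoc2 the treated mice of 12-weeks stood above all WT mice, and at 34-weeks neither gene passed. The size and the calls depend on single mice. Without treated mouse 10 of 12-weeks the values were -2.10 for Apoa4 (adjusted p = 0.0408), -2.25 for Apoc2 (adjusted p = 0.0594) and -1.77 for Apoc1 (adjusted p = 0.0876). Without WT mouse 1 of 34-weeks they were -3.19 (adjusted p = 0.043), -2.31 (adjusted p = 0.0645) and -1.35 (adjusted p = 0.109). With the trends of length and GC content removed, Apoc1 had -0.98 (adjusted p = 0.139).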

How the results depend on the processing

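The log2 fold changes of the 10 genes in the 6 comparisons within a time kept direction and side of the threshold in 408 of 480 values under other settings, with 34 losing and 12 gaining the call and 26 changing sign. Of those 26, 2 had passed: Apob between Lipa-/- and WT mice at 12-weeks (0.04) and Apoa2 between treated and untreated mice at 12-weeks (-0.21), both by limma on log2(TPM + 1). The other 24 had not passed. With total counts and on TPM these were, between Lipa-/- and WT mice, Apoa4 (0.14 and 0.12) and Apoe (0.43 and 0.32) at 12-weeks and Apoa1 (0.28 and 0.39) at 34-weeks; between treated and WT mice at 12-weeks, Apoe (-0.19 and -0.68) and Mttp (-0.31 and -0.55), with Apoa5 on TPM alone (-0.54); and between treated and untreated mice, Apoa1 (-0.22 and -0.54), Apob (-0.40 and -0.64) and Apoe (-0.62 and -0.99) at 12-weeks and Apoa1 (-0.01 and -0.04) at 34-weeks. With length and GC trends removed they were Apoa1 (-0.28) and Apoc2 (-0.54) between Lipa-/- and WT mice and Apoe (-0.13) between treated and WT mice, all at 12-weeks. Apoe between Lipa-/- and WT mice at 12-weeks was 0.01 with upper-quartile factors, and Apob between treated and WT mice at 12-weeks 0.04 in DESeq2. Leaving out 1 mouse lost the call for 32 values and gave it to 3. It changed the sign of 18 values, none of which had passed. The ranges were -0.27 to 0.33 for Apoc2 and -0.15 to 0.09 for Apoe between Lipa-/- and WT mice at 12-weeks and -0.65 to 0.10 for Apoa1 at 34-weeks, and 0.00 (just under 0) to 0.47 for Apoe between treated and untreated mice at 12-weeks. Between treated and WT mice they were -0.29 to 0.18 for Apoa2, -0.09 to 0.38 for Apoe and -0.08 to 0.25 for Mttp at 12-weeks, and -0.13 to 0.62 for Apoa1, -0.54 to 0.17 for Apob, -0.79 to 0.23 for Apoc1 and -0.52 to 0.25 for Apoc3 at 34-weeks.

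Mttp between Lipa-/- and WT mice kept its call in all settings. Of the 3 members that passed between Lipa-/- and WT mice at 12-weeks, the count was 1 with total counts, TPM, no filter, a 2-fold minimum or an adjusted p under 0.01, and 6 with length and GC trends removed, a setting added after seeing the data; leaving out 1 mouse gave 1 to 3. At 34-weeks the count of 9 stayed at 7 to 9. Treated against WT mice at 12-weeks, 4 became 0 on TPM or at 0.01 and 2 with trends removed, and 0 to 4 without 1 mouse (0 without treated mouse 10); at 34-weeks it was 0 throughout. Treated against untreated mice, 7 became 4 with total counts and 2 on TPM at 12-weeks, and at 34-weeks 6 became 4 with total counts, 4 on TPM and 10 with trends removed. Between WT times, 0 became 1 in DESeq2 and 1 without a filter. The interaction of treated mice, 3, became 1 on TPM, 0 at 0.01, 0 with the replicate block and 0 to 4 without 1 mouse. Under the replicate block the calls over all genes went from 48, 9 and 2844 to 5, 0 and 0 for the WT times and the interactions of untreated and treated mice, and the numbers mark different animals. As shares of reads, the members made up 5.23%, 6.37% and 5.65% in WT, Lipa-/- and treated mice at 12-weeks and 5.97%, 4.4% and 5.62% at 34-weeks. The cause of these changes was not tested. Precision is limited by 3 mice a group.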

Other observations

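The level of Apoa4 varied most among the 18 livers, with an 8.24-fold range of TPM, and that of Apoa1 least, with 2.74-fold. The ratio of Apoa4 to Apoa1 in TPM was 0.0467 to 0.19 in WT mice at 34-weeks and 0.0122 to 0.0311 in WT mice at 12-weeks, without overlap. In treated mice at 34-weeks it was 0.0257 to 0.0402, below all WT mice of that time, and in untreated Lipa-/- mice 0.016 to 0.0366. The ratio of Apoc2 to Apoc3 was 0.115 to 0.145 in WT mice and 0.0703 to 0.0816 in treated mice at 34-weeks, again without overlap, whereas untreated mice spanned 0.0928 to 0.174. In reads, without the deposited lengths, the same groups did not overlap either (0.0915 to 0.375 against 0.0247 to 0.0612 and 0.0509 to 0.079 for Apoa4 to Apoa1, and 0.154 to 0.195 against 0.0941 to 0.11 for Apoc2 to Apoc3).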
